A study of Mus musculus with 6 samples.

Results

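The Ly6 genes encode small surface proteins that are used as labels of blood, endothelial and epithelial cell types, and 10 of them, Ly6d, Ly6a, Ly6c1, Ly6c2, Ly6e, Ly6f, Ly6g, Ly6h, Ly6i and Ly6k, were followed in mouse liver after trichloroethylene (TCE), a chlorinated solvent. They were taken by gene symbol from the annotation of the microarray. The array names 9 of the 10, with 11 of its 55681 probes, and Ly6c2 had no probe under its own symbol. The set was chosen by the measured signal of Ly6d, which differed between control and TCE liver on these same arrays, and the other genes were added as its paralogs, so every Ly6d value below is a description and carries no test.

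Liver RNA came from male B6C3F1 mice, an F1 hybrid laboratory strain, which were 7 weeks old. Control mice (n = 3) received corn oil by mouth for 5 days and TCE mice (n = 3) received TCE orally at 1000 mg/kg b.w. a day for 5 days. Each mouse had an array of its own, so the p-values below measure the spread between animals, at a single dose and a single time. Whole liver tissue was used, in which fewer cells of a type and less RNA per cell cannot be told apart.

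Between 23537 and 24965 probes were well above background on an array, and 22731 probes, here called detected, were so on all 3 arrays of at least 1 group. Across these probes Pearson's r was 0.978 to 0.990 between mice of a group and 0.971 to 0.982 between groups. Control mouse 1 was on the first slide and the other 5 arrays on the second. The tissue label was borne out by its markers: 15 of the 15 hepatocyte markers on the array were detected, with albumin (Alb) at a mean log2 signal of 18.69 in control and 18.51 in TCE liver.

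Ly6 proteins carry a compact domain with a three-finger fold that is held together by disulfide bonds, and most are tied to the outer face of the cell membrane by a glycosylphosphatidylinositol (GPI) anchor. The genes stand close together on mouse chromosome 15 and arose by duplication. Ly6a (Sca-1) marks blood stem cells and much of the vascular endothelium, Ly6c1 marks endothelium and some leukocytes, Ly6c2 marks inflammatory monocytes and Ly6g marks neutrophils. Ly6d (ThB) is best known from squamous epithelium and from B cell precursors, and is not among the usual markers of hepatocytes. Ly6a and Ly6e respond to interferon.

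Each probe is a stretch of 60 bases that binds the labeled copy of its transcript, and every one of the 11 probes stood once on the array. The first 30 bases of the probes for Ly6d, Ly6a and Ly6e, and of the first Ly6c1 probe, are shown because the comparisons below rest on them. The positions come from the annotation of the array, on build mm9. Ly6d lies at chr15:74592551-74592610 on the minus strand, Ly6e at chr15:74789592-74789651 on the plus strand, Ly6a at chr15:74825553-74825612 on the minus strand and the first Ly6c1 probe at chr15:74875495-74875554 on the minus strand.
Ly6d: caggacaggaagatgtggcttgtgtcccag
Ly6e: tatcattgtacccaccttgtactctgttca
Ly6a: tatgagttatagaagctccaaggtgggagt
Ly6c1, first probe: tattatagtatcaccatccacacataagta

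Probes of close relatives can bind the same transcripts, and this bears on 2 of the member probes, which are shown whole. The second Ly6c1 probe, at chr15:74877785-74877844 on the minus strand, is listed in the array annotation with transcripts of both Ly6c1 and Ly6c2, so its signal belongs to either gene. The Ly6g probe, at chr15:74989023-74989082 on the plus strand, ends in a run of 28 bases (in capitals) that also stands in a probe without a gene symbol at chr15:75066100-75066159 on the minus strand. Unlike the other member probes, it was matched to 0 genes through the transcript accessions in the array annotation. Only the symbol given there ties it to Ly6g. The other 10 member probes shared no run of 16 or more bases with any of the 55681 probes of the array. Binding to other transcripts was not tested, since no transcript sequences were used here.
Ly6c1 and Ly6c2, second Ly6c1 probe: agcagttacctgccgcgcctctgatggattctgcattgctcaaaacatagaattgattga
Ly6g: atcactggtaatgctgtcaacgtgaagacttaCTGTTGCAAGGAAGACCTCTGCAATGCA
Probe without a symbol: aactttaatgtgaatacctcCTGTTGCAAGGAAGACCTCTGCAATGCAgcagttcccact

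Ly6d was 34.6-fold higher in TCE liver than in control liver. Its log2 signal was 4.89, 5.56 and 5.31 in control mice 1, 2 and 3, and 10.25, 9.72 and 11.13 in TCE mice 1, 2 and 3. All TCE mice stood far above all control mice, with 4.16 log2 units between the highest control mouse and the lowest TCE mouse, while control mice spanned 0.669 units and TCE mice 1.41. Before normalization the intensities were 34.0, 41.4 and 32.7 in control mice and 1480, 749 and 2780 in TCE mice. The group means were 5.26 ± 0.338 in control and 10.37 ± 0.712 in TCE mice (log2 signal, SD, n = 3), and the log2 fold change was 5.11 ± 0.373 (SE).

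The control signal of Ly6d lay at the limit of the array. It was well above background in 2 of the 3 control mice and not in control mouse 1, where 5.02 was the lowest log2 signal of any probe so marked. The size of the fold change moved with the treatment of these low intensities. With a background fitted by normexp in place of the scanner software's subtraction the log2 fold change was 4.40, with an offset of 50 added to the software's intensities it was 3.95, and with both changes it was 3.58. When each mouse was left out in turn it lay between 4.73 and 5.44.

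**Figure D1:**
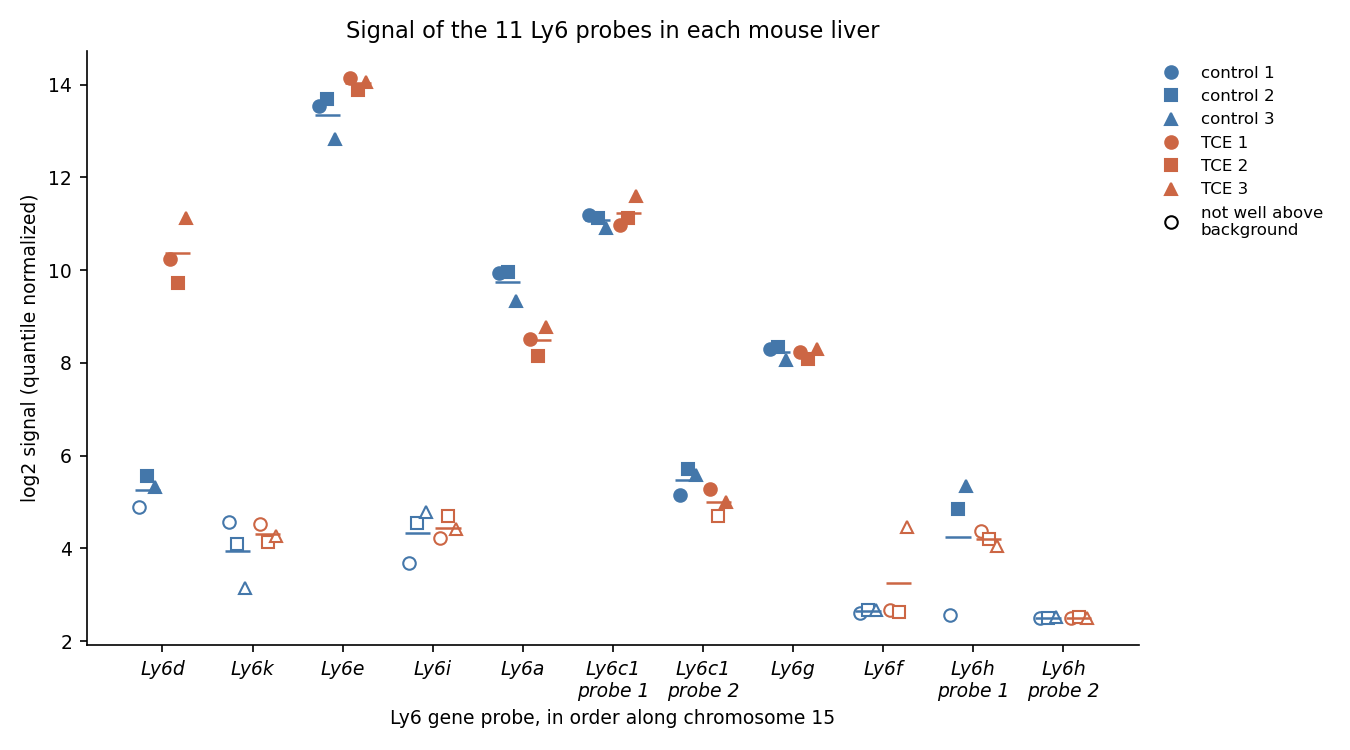
Log2 signal (quantile normalized, vertical axis) of the 11 Ly6 probes, ordered along chromosome 15, in each control mouse (blue) and TCE mouse (orange). Open symbols were not well above background and short lines are group means; levels can be compared within a probe, not between probes. The 3 TCE values of Ly6d stand between 9.72 and 11.13, above control values of 4.89 to 5.56, and those of Ly6a stand below the control values.

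Of the 6 detected Ly6 probes, 1, that of Ly6d, was past the threshold in the upward direction (limma, a Benjamini-Hochberg adjusted p of at most 0.05 with a change of at least 2-fold), beside 1.03% of all detected probes. Since the choice of the set used that contrast, nothing is read from this count. In the downward direction 0 were past the threshold by limma, beside 0.383% of all detected probes, and 1 paralog probe in each direction (Ly6e up, Ly6a down) had an unadjusted p below 0.05, as did 11% of all detected probes upward and 6.95% downward. Ly6d is left out of the next counts, since it was chosen by this contrast. Among the 5 detected paralog probes, all TCE mice exceeded all control mice for 1 (Ly6e), beside 15.5% of all detected probes. All TCE mice were below all control mice for 1 of these 5 (Ly6a), beside 10.2% of all detected probes.

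Ly6a had the lowest fold change of the paralogs, with 2.39-fold less signal in TCE liver. Its log2 signal was 9.94, 9.95 and 9.33 in control mice 1, 2 and 3 and 8.51, 8.16 and 8.78 in TCE mice 1, 2 and 3. The groups did not overlap, and the gap between them of 0.553 was somewhat narrower than the spread within each group (0.623 in control and 0.619 in TCE mice). The log2 fold change was -1.26 ± 0.237 (SE), with a 95% confidence interval from -1.83 to -0.69. By limma the adjusted p over all detected probes was 0.0616, which missed the threshold. It passed where an offset of 50 was added, to the intensities as they were (-1.15, adjusted p 0.0388) or after normexp (-1.07, adjusted p 0.0431), but not with normexp alone (-1.17, adjusted p 0.0595), and it passed with the methods' t-test without adjustment, and it missed the threshold whichever mouse was left out (adjusted p 0.0762 to 0.208, log2 fold change -1.46 to -1.10).

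Ly6a is carried by endothelial cells, so markers of that cell type were counted beside it. Of the 20 detected endothelial markers 19 had a lower mean in TCE mice and 1 a higher one, with a median log2 fold change of -0.28, whereas 46.9% of all 13284 detected genes were lower and their median was 0.02. By limma 0 of the 20 were past the threshold, and 2, Cldn5 and Flt1, were lower with an unadjusted p below 0.05. Over all detected genes 0.429% were past the threshold downward and 1.3% upward. With an unadjusted p below 0.05, 7.11% of all genes were lower and 12% higher. The counts of markers by p-value lie near these shares. All TCE mice were below all control mice for 4 of the 20 markers and above them for 0, beside 10.8% and 17.1% of all genes. The mean log2 signal of the list was 9.52 to 9.70 in control mice and 8.94 to 9.55 in TCE mice, and 2 markers, Erg and Flt4, were not detected. The list was lowest in TCE mouse 1 and Ly6a was lowest in TCE mouse 2. Without TCE mouse 1 the median of the list was -0.10, and the log2 fold change of Ly6a was -1.27. The markers of highest probe signal were Clec4g (-0.20, adjusted p 0.811) and Egfl7 (-0.36, adjusted p 0.451). The part of endothelial cells in the Ly6a signal was not tested.

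Lymphocyte markers, among them those of the T cells that also carry Ly6a, were lower in 6 of 9 detected genes and higher in 3, beside 46.9% lower over all genes, with a median of -0.19. The median was -0.03 without TCE mouse 2 and -0.10 without TCE mouse 1. The mean signal of this list was 8.17 to 8.40 in control mice and 7.74 to 8.27 in TCE mice. By limma 0 of the 9 were past the threshold, and Cd22 of B cells and Cd3e of T cells were lower with an unadjusted p below 0.05, as were 7.11% of all genes. Those of highest probe signal were Cd4, a helper T cell receptor, with a log2 fold change of -0.93 (adjusted p 0.279), and Nkg7, of killer cells, with -0.19 (adjusted p 0.611). The other 16 of the 25 markers, among them Cd8a and Ms4a1, were not detected. Their part in the Ly6a signal was not tested.

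Ly6e, which encodes a receptor for syncytin A in the placenta and limits the entry of some viruses, was 1.59-fold higher in TCE liver. The log2 signal was 13.54, 13.69 and 12.83 in control mice 1, 2 and 3 and 14.15, 13.88 and 14.05 in TCE mice 1, 2 and 3. The groups did not overlap, but only 0.19 separated them, and control mouse 3 stood apart from the other control mice by more than that. The log2 fold change was 0.67 ± 0.240 (SE, 95% confidence interval 0.09 to 1.25), with an adjusted p of 0.222 by limma. Without control mouse 3 it was 0.41.

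Interferon-induced genes were counted beside Ly6e and Ly6a. Of 30 detected genes 20 had a higher mean in TCE mice and 10 a lower one, beside 53.1% higher over all genes, with a median log2 fold change of 0.12, and by limma 0 were past the threshold. An unadjusted p below 0.05 was found for Bst2 and Oas2, which were higher (12% of all genes), and for Rsad2, which was lower (7.11% of all genes). Those of highest probe signal were Bst2, which tethers budding virus to the cell (0.53, adjusted p 0.121), and Igtp, an immunity-related GTPase (0.06, adjusted p 0.962). The list stood highest in TCE mouse 1, with a mean log2 signal of 10.22, while TCE mice 2 and 3 (9.24 and 9.39) lay below the 3 control mice (9.44 to 9.58). Without TCE mouse 1 the median of the list turned to -0.20, while it was 0.30 without TCE mouse 2, 0.19 without TCE mouse 3 and 0.08 without control mouse 1. Ly6e was highest in TCE mouse 1 as well, and without that mouse its log2 fold change was 0.61. Whether interferon signaling had a part in the Ly6e signal was not tested.

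The first Ly6c1 probe gave log2 signals of 11.18, 11.13 and 10.91 in control mice and 10.98, 11.12 and 11.61 in TCE mice 1, 2 and 3. The groups overlapped, and only TCE mouse 3 exceeded all control mice. The log2 fold change was 0.17 ± 0.192 (SE, adjusted p 0.696 by limma), with a 95% confidence interval from -0.30 to 0.63. Without TCE mouse 3 it was -0.02.

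The second Ly6c1 probe, shared with Ly6c2, pointed the other way. It read 5.16, 5.71 and 5.58 in control mice and 5.29, 4.69 and 4.99 in TCE mice 1, 2 and 3, and was not well above background in TCE mouse 2. It thus counted as detected only through the control mice, where its mean was higher. That rule favors a lower value in TCE mice, so nothing is read from the direction of this probe. The groups overlapped through TCE mouse 1. The log2 fold change was -0.49 ± 0.214 (SE, 95% confidence interval -1.01 to 0.02, adjusted p 0.299 by limma). This probe lay near background, and the log2 fold change was -0.34 with normexp, -0.21 with the offset of 50 and -0.19 with both. The sign thus differed between the probes of Ly6c1, but nothing is read from that of the second, and neither was past the threshold.

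The probe with the symbol Ly6g, which no listed transcript ties to that gene, had nearly the same mean in both groups, 8.23 in control and 8.21 in TCE mice. Its log2 signal was 8.29, 8.34 and 8.07 in control mice and 8.25, 8.09 and 8.31 in TCE mice 1, 2 and 3, and the TCE values lay inside the control range. The log2 fold change was -0.02 ± 0.130 (SE, adjusted p 0.963 by limma), with a 95% confidence interval from -0.33 to 0.30. The probe without a symbol that shares its 28-base run had a log2 fold change of -0.22 (adjusted p 0.489).

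Markers of monocytes and neutrophils, the cells that Ly6c2 and Ly6g label, were higher in 8 of 12 detected genes and lower in 4, beside 53.1% higher over all genes, with a median of 0.22. The median was 0.09 without control mouse 1 and 0.35 without TCE mouse 2. Ptprc, among the higher ones, passed the detection rule only through the TCE mice. When a probe had to be above background on all 6 arrays the median was 0.17. By limma 0 were past the threshold, and Plac8 and S100a8 were higher with an unadjusted p below 0.05, as were 12% of all genes. S100a8, a subunit of the neutrophil protein calprotectin, read 5.57, 6.24 and 5.96 in control mice and 6.75, 7.04 and 7.55 in TCE mice, so that its log2 fold change was 1.19 (adjusted p 0.0886). S100a9, the other subunit, had a log2 fold change of 0.26 (adjusted p 0.703), and its groups overlapped. Of the 4 lower genes, Lyz2 (-0.96, adjusted p 0.393) and Chil3 (-0.78, adjusted p 0.44) had the largest changes. Those of highest probe signal were Csf3r, the G-CSF receptor (0.54, adjusted p 0.472), and Csf1r, the macrophage CSF receptor (-0.07, adjusted p 0.845). The other 11 of the 23 markers, among them Mpo, Ltf, Ngp and Cxcr2 of neutrophils and Ccr2 of inflammatory monocytes, were not detected.

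The remaining 5 probes, of Ly6k, Ly6i, Ly6f and Ly6h, were not detected, and no fold change is given for them. Ly6k, known from sperm function in the testis, read 3.13 to 4.56 over the 6 mice. Ly6i read 3.69 to 4.77 over the 6 mice. Ly6f read 2.60 to 2.67 in 5 mice and 4.46 in TCE mouse 3, which was still not well above background. Ly6h, a gene of the nervous system, had 2 probes, of which 1 was above background in control mice 2 and 3 (4.84 and 5.34) and in no other mouse. Its other probe, and those of Ly6k, Ly6i and Ly6f, were above background on 0 arrays.

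It was also counted which mouse of a group was highest or lowest over the 6 detected Ly6 probes. TCE mouse 2 had the lowest TCE value for 5 of the 6 detected probes, beside 28.5% of all detected probes. TCE mouse 3 had the highest for 4 of the 6 (26.9% of all detected probes). Among control mice, mouse 2 was highest for 5 of the 6 (31.2% of all detected probes). The 6 include Ly6d, by which the set was chosen. They also include the second Ly6c1 probe, which was not well above background in TCE mouse 2. Nothing is read from these counts. Over the 6 mice Pearson's r with Ly6d was 0.776 for Ly6e, -0.866 for Ly6a, 0.466 and -0.637 for the first and the second Ly6c1 probe, and 0.01 for Ly6g. These values describe 6 arrays in 2 groups, and the difference between the groups enters each of them.

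Ly6d stands among other genes of the same superfamily, so the probes around it were examined on the same scale. Within 500 kb on either side the array holds 62 other probes, of which 12 were detected. By limma 0 of the 12 were past the threshold, beside 1.03% of all detected probes upward and 0.383% downward. An unadjusted p below 0.05 was found for 2 of them, those of Ly6e (higher) and Ly6a (lower). So it was for 11% of all detected probes upward and 6.95% downward. Lynx1, which encodes a GPI-anchored modulator of nicotinic receptors, lies 14.1 kb before Ly6d in the coordinates and had a log2 fold change of 0.18 (adjusted p 0.528). Slurp2, which encodes a secreted relative, lies 19.3 kb before and had a log2 fold change of -0.44 (adjusted p 0.653). Lypd2, 29.9 kb before, had 0.15 (adjusted p 0.817), and Gml2, 59.2 kb after, had 0.05 (adjusted p 0.963). Slurp2 and Gml2 carry older symbols on the array and were matched through RefSeq synonyms. Ly6k, the nearest gene after Ly6d on the array at 35.0 kb, was not detected, and neither were Slurp1 and Psca on the other side.

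**Figure D2:**
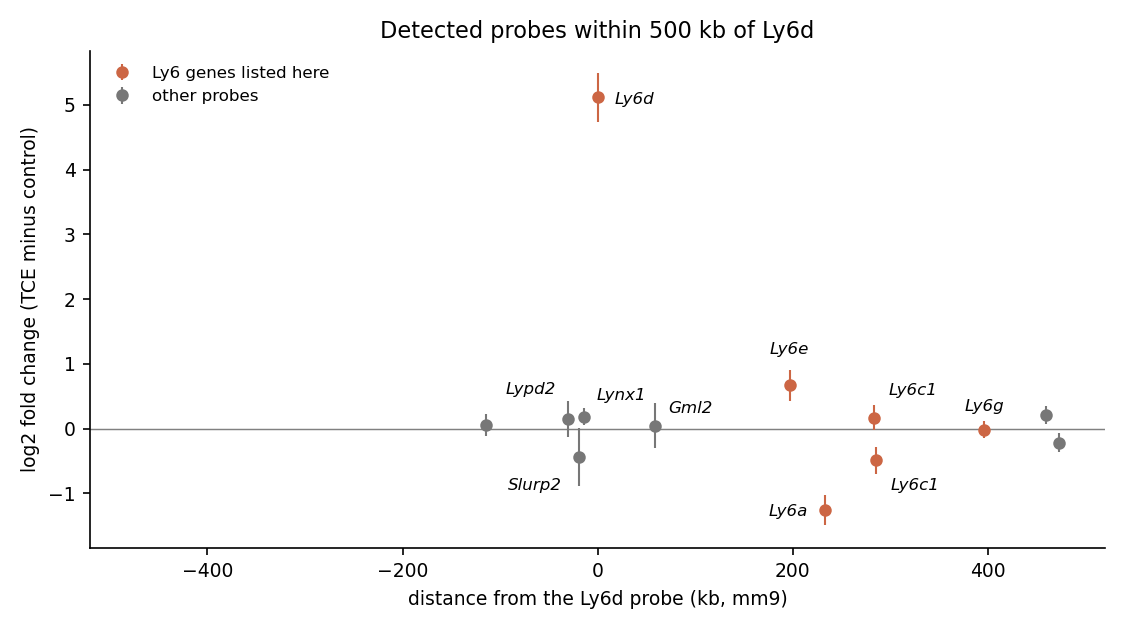
Log2 fold change (TCE minus control, vertical axis, bars are SE, n = 3 per group) of each detected probe against its distance from the Ly6d probe in kb, with Ly6 genes of the set in orange and other probes in grey. Ly6d stands at 5.11, and the 12 other probes lie between -1.26 (Ly6a) and 0.67 (Ly6e).

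Beyond the 10 genes, 25 other genes with a Ly6/uPAR domain had a probe and 9 of them were detected. By limma 0 of the 9 were past the threshold. Of the 9, 6 were higher and 3 lower in TCE mice, beside 53.1% higher over all genes, with a median log2 fold change of 0.10 that was 0.05 without control mouse 1 and 0.06 without control mouse 3. Cd59b, among the lower ones, passed the detection rule only through the control mice. When a probe had to be above background on all 6 arrays the median was 0.13. Ly6g6c was higher with an unadjusted p below 0.05, as were 12% of all genes. Those of highest probe signal were Cd59a, which shields cells from the complement membrane attack complex (0.10, adjusted p 0.661), and Gpihbp1, which holds lipoprotein lipase on capillaries (-0.24, adjusted p 0.707). The uPAR gene itself, Plaur, was not detected.

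The enzymes that build, attach and release GPI anchors, on which most Ly6 proteins depend, showed no gene past the threshold among 25 detected (limma), with 10 higher and 15 lower, beside 53.1% and 46.9% of all genes, and a median of -0.05. The median was 0.002 without control mouse 3 and -0.10 without TCE mouse 2. An unadjusted p below 0.05 was found for Gpld1, a phospholipase that cuts GPI anchors (-0.70, adjusted p 0.102), and for Piga and Pigs, of anchor synthesis and transfer, all of which were lower, as were 7.11% of all genes with such a p. Those of highest probe signal were Dpm3, a subunit of the mannose donor enzyme (0.05, adjusted p 0.865), and Pigq (-0.07, adjusted p 0.844).

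Markers of the epithelia in which Ly6d is known were examined beside it. Of 16 squamous epithelium markers 6 were detected, with 2 higher and 4 lower, beside 53.1% and 46.9% of all genes. Their median was -0.15, and by limma 0 were past the threshold. Sprr1a, among the lower ones, passed the detection rule only through the control mice, where it was higher. When a probe had to be above background on all 6 arrays the median was -0.04. The keratins Krt5 and Krt14, which define basal squamous cells, were above background on 0 arrays. Those of highest probe signal were Perp, of desmosomes (0.38, adjusted p 0.203), and Trp63, the transcription factor p63 (0.52, adjusted p 0.167), which were also the 2 with an unadjusted p below 0.05, beside 12% of all genes upward. The mean log2 signal of the list was 8.26 to 8.62 in control mice and 8.26 to 8.45 in TCE mice. Without control mouse 1 the median of the list turned to 0.16, and without control mouse 3 it was -0.32. Of 12 bile duct markers 5 were detected, with 1 higher and 4 lower, beside 53.1% and 46.9% of all genes. Their median was -0.22, which was -0.07 without TCE mouse 3 and -0.14 without control mouse 2. By limma 0 of them were past the threshold. Epcam and Krt7 were not detected. Spp1 had a log2 fold change of -0.22 (adjusted p 0.555). Prom1, the bile duct gene with an unadjusted p below 0.05 (beside 7.11% of all genes downward), had -0.95 (adjusted p 0.182). Of the B cell markers Cd79a, Cd22, Vpreb1 and Vpreb3 were detected, each above background in all 6 mice. Vpreb1 and Vpreb3, of the surrogate light chain of B cell precursors, had log2 fold changes of 0.28 (adjusted p 0.447) and 0.13 (adjusted p 0.855). Cd79a, of the B cell receptor, had 0.40 (adjusted p 0.498) and Cd22, its inhibitory partner, -1.21 (adjusted p 0.274). Cd79b, Ms4a1, Pax5, Ebf1, Igll1 and Rag1 were not detected. Hepatocyte markers had a median of -0.04 (-0.06 to -0.01 as each mouse was left out, and -0.14 after scaling each array to its 75th percentile). Of the 15, 6 were higher and 9 lower, beside 53.1% and 46.9% of all genes, and by limma 0 were past the threshold. Apoa1, which was lower, and Tat, which was higher, had an unadjusted p below 0.05, as did 7.11% of all genes downward and 12% upward. Serpina1a (-0.06, adjusted p 0.818) and Alb (-0.18, adjusted p 0.617) were those of highest probe signal. Which cells of the liver gave the Ly6d signal was not tested.

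**Figure D3:**
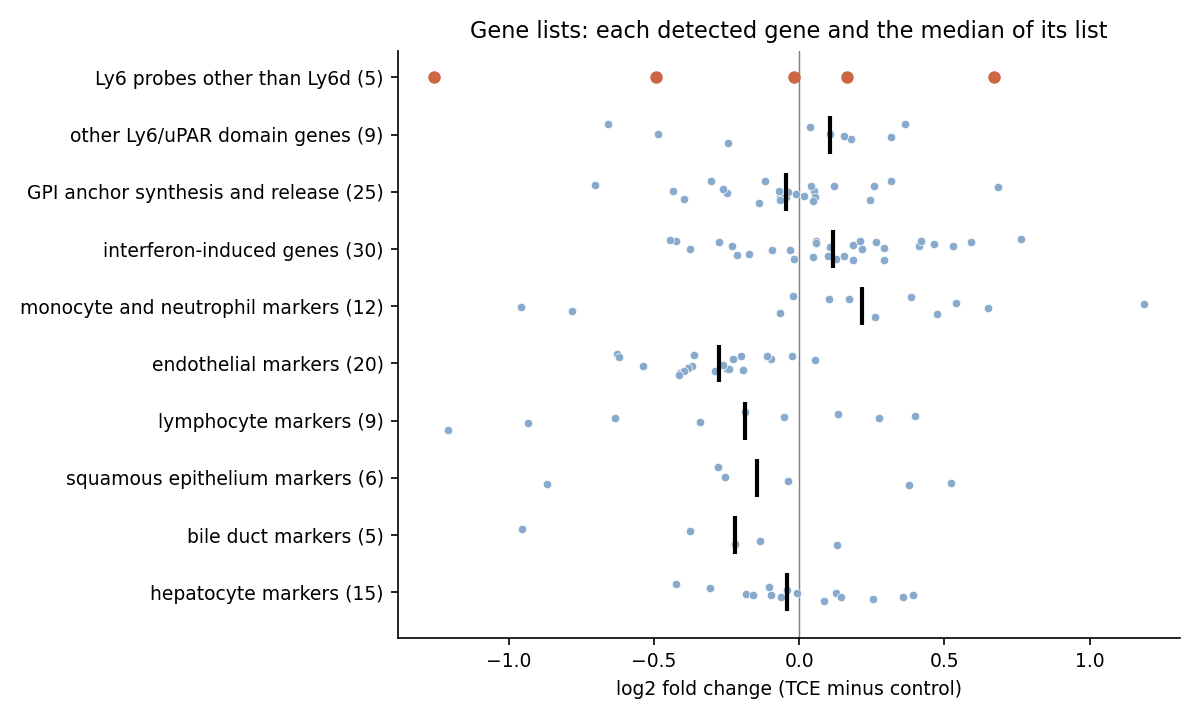
Log2 fold change (TCE minus control, horizontal axis) of the 5 detected Ly6 probes other than Ly6d (orange) and of every detected gene of 9 lists (blue, number of genes in brackets), with the median of each list as a black bar. The medians lie between -0.28 for endothelial markers and 0.22 for monocyte and neutrophil markers, and the 5 Ly6 probes spread from -1.26 to 0.67.

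The genes whose profile over the 6 mice was most like that of Ly6d were ranked by Pearson's r among 13283 detected genes. Gstm3, a glutathione transferase, had an r of 0.9985 and the same order of all 6 mice. Its log2 signal was 11.87, 12.01 and 11.91 in control mice and 13.20, 13.08 and 13.54 in TCE mice, and its log2 fold change was 1.34. Apoc2, the activator of lipoprotein lipase, followed with an r of 0.997, on a much smaller difference of 0.41. Akr1c18, an aldo-keto reductase that inactivates progesterone, had an r of 0.9956 and a log2 fold change of 2.88. Pbk, a mitotic kinase, had an r of 0.9956 and was higher in TCE mice. It was above background in 0 of the 3 control mice and passed the detection rule only through the TCE mice. No fold change is given for it, and its r rests in part on control values below what the array can measure. Llgl2, a cell polarity gene, had an r of 0.9953 and a log2 fold change of 0.26.

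In all of these 5 genes TCE mouse 3 was the highest of the TCE mice, as in Ly6d. They were picked for their likeness to Ly6d on these same arrays, which favors a shared order, so nothing is read from this. The correlations rest on 6 arrays in 2 groups, and 757 genes had an r of 0.9 or more and 283 an r of -0.9 or less. The order of all 6 mice matched that of Ly6d in 44 genes. Among the 234 probes past the threshold in the upward direction, TCE mouse 1 was the highest of the TCE mice for 77, TCE mouse 2 for 93 and TCE mouse 3 for 64.

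**Figure D4:**
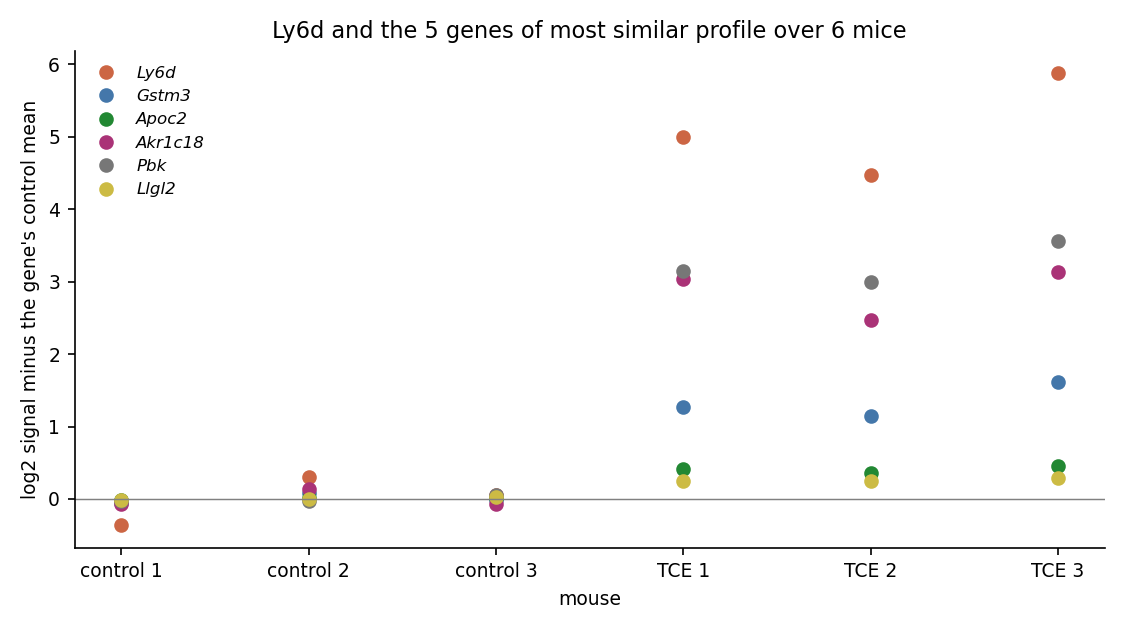
Log2 signal of Ly6d and of the 5 genes with the highest Pearson's r to it, minus each gene's control mean (vertical axis), in each of the 6 mice (horizontal axis), where the control values of Pbk were not above background. Every one of the 6 genes is lowest in TCE mouse 2 or level there with TCE mouse 1, and highest in TCE mouse 3, among TCE mice, and their TCE values range from a log2 fold change of 0.26 (Llgl2) to 5.11 (Ly6d) on average.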

How the data were processed

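Liver RNA of 3 control and 3 TCE mice was hybridized to 1-colour Agilent arrays. Per the labels the authors extracted spots with Agilent Feature Extraction 10.7.1.1, and its deposited output holds, per spot, an intensity after background subtraction and flags. The authors also deposited a spreadsheet with the array annotation and group means of normalized log2 values, the latter used as an alternative. Its 6 flag columns for single arrays were not used, since their names could not be tied to samples with certainty.

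Control spots were left out and 123 to 189 outlier spots per array set to missing. Intensities were log2 transformed without a pseudocount, averaged over the spots of a probe and quantile normalized across arrays. A signal near background is imprecise, and fold changes from it depend on the background correction and on any offset. Detected probes were tested with limma 3.58.1 (R 4.3.3, with statmod 1.5.0 and version 1.17.8 of data.table, lmFit and eBayes, two-sided, group as factor, Benjamini-Hochberg over 22731 probes), at an adjusted p of 0.05 and a fold change of 2. The procedure was tested on simulated data. Each gene of a list was represented by its brightest detected probe.

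The members and lists were chosen with earlier results of these data known. Named are all members, the 5 genes most like Ly6d, the nearest detected genes, and in each list the 2 genes of highest signal. Genes with an unadjusted p below 0.05, undetected defining markers, and S100a9, Lyz2 and Chil3 were named after their values were seen. The alternatives were another normalization, background correction (normexp, offset 50, and each of these alone, added after the data were seen) and filter, outlier spots kept, the authors' means, replicate and slide blocks, each mouse left out, the methods' t-test and no fold threshold.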

Additional observations from a re-analysis of the deposited data

How the results depend on the processing

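The log2 fold change of Ly6d was 3.58 with normexp and an offset of 50, in place of 5.11. Of the 2 settings that separate these changes, chosen after seeing the data, normexp with no offset gave 4.40 and the offset alone 3.95. The replicate number as a block left the log2 fold change of Ly6d at 5.11. By limma it left the direction and call of every detected paralog probe as they were (Ly6a -1.26 with adjusted p 0.194, Ly6e 0.67 with adjusted p 0.297). Over all detected probes it gave 56 higher and 7 lower calls, in place of 234 and 87. The labels do not say whether the numbers pair the mice. The correlations of deviations between mice of the same number were 0.0897, 0.0066 and -0.0916, and 2 of the 6 arrays correlated best with their own number. With so few mice these values cannot settle whether the mice were paired. Ly6 probes called lower numbered 1 with normexp and offset, 1 with the offset alone and 1 with the methods' t-test without adjustment, each time Ly6a (1 of the other probes near Ly6d under each). The count of Ly6 probes called higher holds Ly6d alone, by whose contrast the set was chosen, so nothing is read from it. That count was 0 when a probe had to be above background on all 6 arrays, a filter that removes Ly6d. It was also 0 with the t-test after adjustment. Over the 9 lists the t-test without adjustment called 1 gene, S100a8 (p 0.0175). Without a filter, over all 55681 probes of the array, the calls higher and lower were 78 and 18. Over all detected probes they were 147 and 30 with the slide as a block, 388 and 206 with the t-test without adjustment and 31 and 4 after it. The filter on all 6 arrays gave 149 higher, and dropping the fold threshold gave 131 lower. Leaving out each mouse in turn gave 105 to 170 higher and 19 to 74 lower. Control mouse 1 was alone on its slide, so a difference between slides cannot be told apart from that mouse. With the slide as a block the Ly6 fold changes were those found without control mouse 1 (Ly6d 4.93 in both). The sign turned for Ly6g across the mice left out (-0.10 to 0.046, with 0.013 without control mouse 1 or with the slide as a block). For the first Ly6c1 probe it also turned across the mice left out (-0.021 without TCE mouse 3, up to 0.295). The cause was not tested. With 3 mice per group the intervals are wide, and Ly6d in control liver and 5 of the 11 probes lay at or below the level the arrays can measure.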
